A study of Mus musculus with 10 samples.

Results

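The 10 genes described here encode the core of transforming growth factor beta (TGF-beta) and activin signalling, and were taken by symbol from the 24411 genes counted in each library. They are the ligand genes Tgfb1 and Inhba, the receptor genes Tgfbr1 and Tgfbr2, the signal transducers Smad2, Smad3 and Smad4, the inhibitor Smad7, and the nuclear co-repressors Ski and Skil. RNA was sequenced from 10 libraries of mouse microglia in 4 groups, all of them treated with 10 uM EPZ-6438, which blocks EZH2, the enzyme that methylates lysine residues of histone H3. The groups were primary microglia with lipopolysaccharide (LPS; n = 3), primary microglia without LPS (n = 3), BV2 cells with LPS (n = 2) and BV2 cells without LPS (n = 2). LPS, an outer-membrane molecule of Gram-negative bacteria sensed by Toll-like receptor 4, was given at 10 ng/ml, and treatment lasted 4 h. Primary microglia came from 3-day-old ICR mice. Brains of 12 mice were pooled, mixed glia were grown for 2 weeks and microglia were shaken off, to a stated purity of more than 92%. BV2 is an immortalised mouse microglial line. Because every group carried the inhibitor, the comparisons below are of LPS and of cell type under EPZ-6438, and none measures the inhibitor. Whether replicates were separate cultures is not in the labels. The p-values therefore measure the spread between libraries alone, which may be technical.

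TGF-beta ligands are secreted in a latent form, and once freed they bind the type II receptor, which phosphorylates the type I receptor. The active type I receptor phosphorylates SMAD2 and SMAD3, which join SMAD4 and enter the nucleus to act on target genes. SMAD7 counters the receptors, SKI and SKIL (also called SnoN) repress SMAD complexes on chromatin, and activins signal to the same SMAD2 and SMAD3 through their own receptors. In the brain, TGF-beta signalling is known for keeping microglia in their mature, resting state.

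Gene counts per library lay between 2750988 and 3684012, of which the ribosomal RNA precursor Rn45s took 15.7% to 51.7%. Library 1 of primary microglia with LPS stood apart from its replicates: its chi-square per degree of freedom against them was 68.8 and 74.4, against 2.80 between libraries 2 and 3. It held 43.7% Rn45s, against 15.7% and 16.0% in those 2, and the 3 primary libraries without LPS held 50.3%, 51.7% and 40.9%. The Rn45s share thus moved with LPS in primary microglia, apart from library 1, and its part in the LPS results was not tested. In BV2 cells it was 27.2% and 28.6% with LPS and 27.0% and 30.1% without LPS. Results that rest on library 1 are given with and without it. Of 13 microglia markers, all were detected in each primary library and 12 in each BV2 library, where Sall1 was at 0. P2ry12 and Tmem119, markers of resting microglia, were low in primary microglia, at 2.06 and 1.90 counts per 1000000 gene counts (CPM) with LPS and 5.66 and 2.50 CPM without LPS.

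In primary microglia with LPS, Ski and Tgfbr1 fell most of the 10 genes, Smad3, Smad7 and Tgfbr2 fell less, and Skil rose. Tgfb1, Inhba, Smad2 and Smad4 did not pass the test. In all, 6 of the 10 genes were called at an adjusted p under 0.05 by edgeR's quasi-likelihood test with Benjamini-Hochberg adjustment, 1 higher and 5 lower. Of the 10664 genes tested, 39.2% were called in this comparison, 21.4% higher and 17.8% lower. In 6 of the 10 genes the libraries with LPS did not overlap with those without, as in 49.1% of all genes tested. The median log2 fold change was -0.44 over the 10 genes, against -0.03 over all genes tested.

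**Figure D1:**
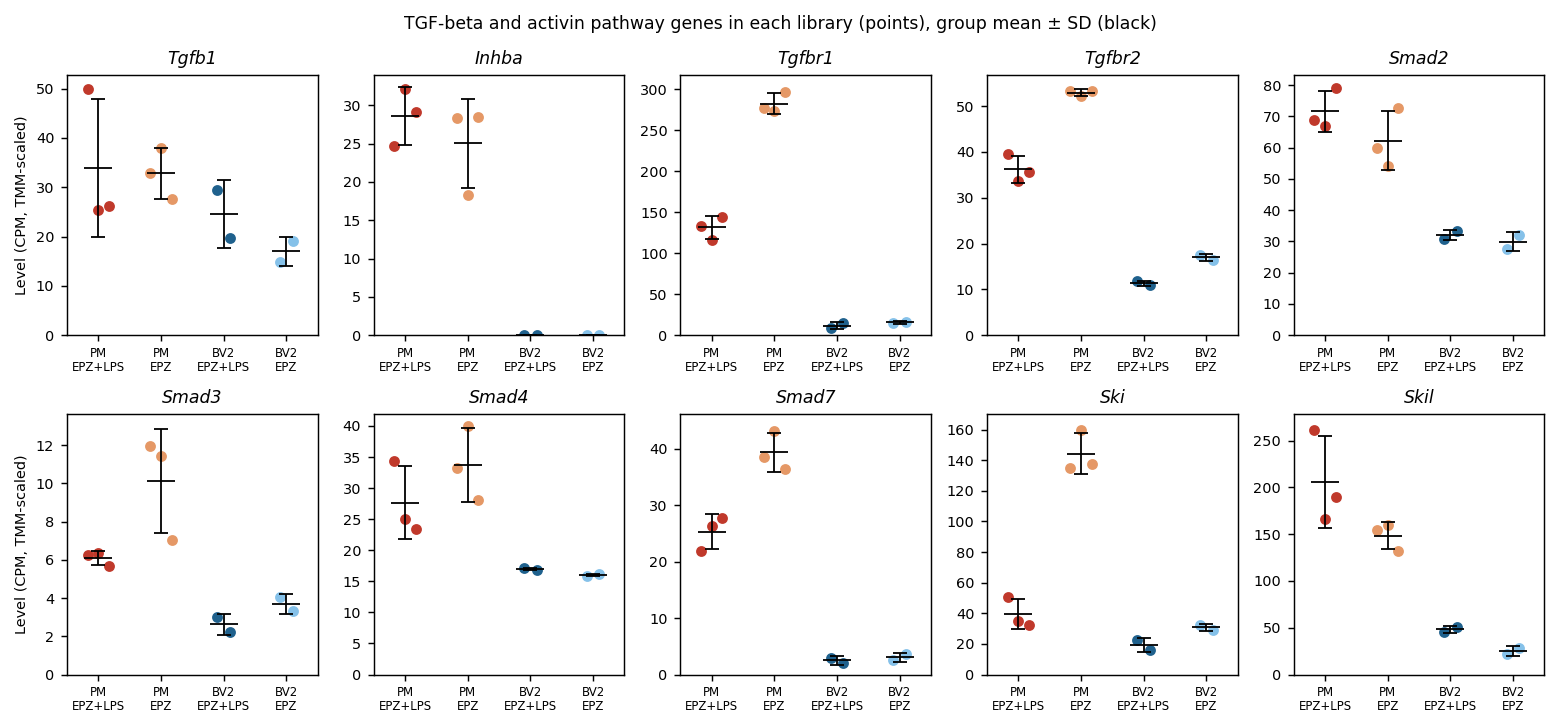
Level of each of the 10 genes in each library, in CPM after TMM scaling (y axes start at 0 and differ between panels), by group (PM, primary microglia; EPZ, EPZ-6438); points are libraries, black bars the group mean ± SD. Ski lies between 32.5 and 50.8 CPM in primary microglia with LPS, below the 135 to 160 CPM without LPS, and Inhba is at 0 in all 4 BV2 libraries.

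Ski encodes a co-repressor first known as a cellular oncogene, and lies at chr4:155154075-155222592 on the minus strand (mm10). It had 50.8, 35.3 and 32.5 CPM in the 3 libraries of primary microglia with LPS, against 135, 160 and 138 CPM in the 3 without LPS. The highest library with LPS lay well below the lowest without it. The log2 fold change was -1.89 ± 0.15 (SE; adjusted p = 9.08e-09), which is 3.71-fold lower with LPS, and it held in all 14 alternative settings (-2.10 to -1.75). In BV2 cells Ski had 22.5 and 16.3 CPM with LPS, against 32.4 and 29.4 CPM without LPS. These groups did not overlap either, but the log2 fold change of -0.65 ± 0.22 did not pass the test (adjusted p = 0.144), and passed only without library 1 of BV2 cells with LPS (-0.87, adjusted p = 0.0218). The response was lower in primary microglia than in BV2 cells by 1.20 ± 0.27 on the log2 scale (a difference of -1.20, adjusted p = 0.00261, edgeR's test of the interaction). Of the 10 genes, Ski was the only one called in this test, beside 12.2% of the 11626 genes tested (8.65% higher and 3.54% lower in primary microglia minus BV2 cells). For Inhba, at 0 in BV2 cells, the difference could not be estimated. Without library 1 of primary microglia with LPS, 4 of the genes were called, all with a lower response in primary microglia: Ski, Tgfb1 (-0.95), Tgfbr1 (-0.84) and Skil (-0.79). In that setting the values of all genes moved down as well. Their median went from 0.04 to -0.05, and 54.5% of all calls were positive, against 70.9% with library 1. The share of all genes called in that setting is not given here.

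Skil, the close relative of Ski, lies at chr3:31095058-31122577 on the plus strand and is itself a known target gene of the pathway. It moved the other way. Primary microglia with LPS had 261, 166 and 190 CPM, against 154, 160 and 132 CPM in primary microglia without LPS. Library 1 with LPS was the highest, and the lowest library with LPS was just above the highest without it. The log2 fold change was 0.45 ± 0.15 (adjusted p = 0.0285). Without library 1 it was 0.26 (adjusted p = 0.0572), and the call was also lost without each one of the 3 libraries without LPS (adjusted p of 0.0714, 0.0531 and 0.139). In BV2 cells Skil had 45.9 and 51.2 CPM with LPS, against 21.5 and 28.7 CPM without LPS, a log2 fold change of 0.99 ± 0.20 (adjusted p = 0.0102). It was the only one of the 8 genes tested there that was called, where 5.20% of 9321 genes were, 3.69% higher and 1.51% lower. In 6 of these 8 the groups did not overlap, as in 42.1% of all genes tested. That call was lost without library 1 of BV2 cells without LPS (0.81, adjusted p = 0.0987). The difference of the Skil responses, primary microglia minus BV2 cells, was -0.49 ± 0.26 (adjusted p = 0.285), with a 95% interval of -1.003 to 0.02.

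**Figure D2:**
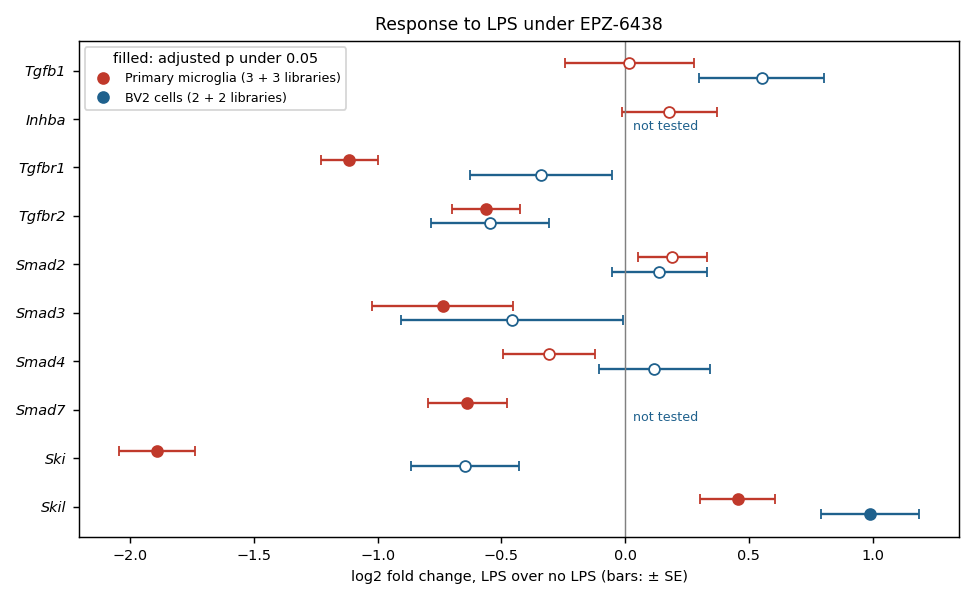
Log2 fold change of LPS over no LPS (x axis; bars are ± SE) for each gene in primary microglia (red) and in BV2 cells (blue); filled points have an adjusted p under 0.05. Ski (-1.89) and Tgfbr1 (-1.12) lie farthest to the left in primary microglia, and Skil is to the right in both kinds of cells (0.45 and 0.99).

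The balance of the co-repressor messages is read within a library, where depth and scaling cancel. The ratio of Skil to Ski read counts was 5.14, 4.70 and 5.85 in primary microglia with LPS, against 1.14, 1.00 and 0.957 without LPS. In BV2 cells it was 2.04 and 3.14 with LPS, against 0.663 and 0.978 without LPS. Within each kind of cell every library with LPS lay above every one without it. The ratio was 5.06-fold higher with LPS in primary microglia and 3.15-fold higher in BV2 cells, as ratios of geometric means. An exact two-sided permutation test gave p = 0.1 with 3 against 3 libraries and p = 0.333 with 2 against 2, which are the smallest values these designs allow, and 0.133 and 0.667 after adjustment over the 4 ratios tested in each kind of cell. The fourth ratio, Smad7 to Smad4, overlapped between the groups in primary microglia (mean 0.956 ± 0.284 with LPS, 1.18 ± 0.111 without LPS; SD, n = 3 each; exact p = 0.3, adjusted 0.3) and in BV2 cells (exact p = 0.667, adjusted 0.889). The ratios were chosen after the counts had been seen.

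**Figure D3:**
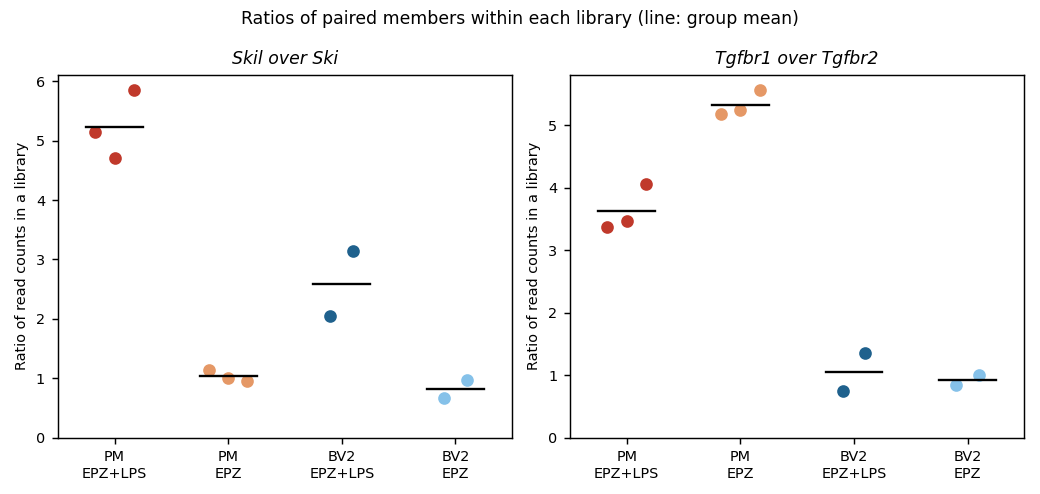
Ratio of read counts of Skil over Ski (left) and of Tgfbr1 over Tgfbr2 (right) in each library (points), with the group mean (line); both axes start at 0. Skil over Ski is 4.70 to 5.85 in primary microglia with LPS, above 0.957 to 1.14 without LPS, and 2.04 to 3.14 in BV2 cells with LPS, above 0.663 to 0.978 without LPS.

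Among the 7969 genes with a mean of at least 10 CPM, those nearest to Ski in pattern over the 10 libraries were Rab11fip5, Fbxl20 and Zfp704. Likeness was the root mean square difference of log2 CPM, each gene centred on its own mean, and came to 0.131, 0.141 and 0.217. Rab11fip5 averaged 22.4 CPM in primary microglia with LPS and 83.9 CPM without LPS, and 10.5 CPM in BV2 cells with LPS and 16.1 CPM without LPS. Nearest to Skil were Arid5b (0.230), Akap13 (0.231) and Nfe2l1 (0.250). Nfe2l1 averaged 195 CPM in primary microglia with LPS and 135 CPM without LPS, and 51.8 CPM in BV2 cells with LPS and 33.4 CPM without LPS.

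Tgfbr1 encodes the type I receptor kinase (ALK5) and lies at chr4:47353222-47414931 on the plus strand. It had 133, 117 and 145 CPM in primary microglia with LPS, against 276, 273 and 297 CPM without LPS. Each library with LPS was at about the same low level, and the groups did not overlap. The log2 fold change was -1.12 ± 0.12 (adjusted p = 2.20e-07). In BV2 cells Tgfbr1 had 8.72 and 14.9 CPM with LPS, against 14.6 and 16.5 CPM without LPS, and these overlapped (log2 fold change -0.34 ± 0.29, adjusted p = 0.709). The difference between the responses was -0.73 ± 0.28 and did not pass the test (adjusted p = 0.0884). It passed without library 1 of primary microglia with LPS (adjusted p = 0.0287) and without library 1 of BV2 cells with LPS (adjusted p = 0.0145).

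Tgfbr2, the type II receptor that binds the ligand first, lies at chr9:116084293-116175360 on the minus strand. Levels were 39.5, 33.7 and 35.6 CPM in primary microglia with LPS, against 53.4, 52.2 and 53.3 CPM without LPS. The libraries without LPS were nearly alike and lay above all those with it. The log2 fold change was -0.56 ± 0.14 (adjusted p = 0.00306). BV2 cells had 11.7 and 11.0 CPM with LPS, against 17.4 and 16.5 CPM without LPS, with a log2 fold change of much the same size, -0.55 ± 0.24, that did not pass the test (adjusted p = 0.316). The 95% interval of the difference between the responses ran from -0.48 to 0.54. Read counts of Tgfbr1 were 3.37, 3.46 and 4.06 times those of Tgfbr2 in primary microglia with LPS, against 5.17, 5.24 and 5.57 times without LPS. In BV2 cells the 2 receptors had nearly equal counts, with ratios of 0.743 and 1.36 with LPS and 0.839 and 1.00 without LPS. The exact permutation p was 0.1 in primary microglia, the smallest possible (0.133 adjusted over the 4 ratios), and 1 in BV2 cells.

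Sequences around the start sites of 6 of the 10 genes were in the table of RefSeq promoters (GRCm38.p6, 250 bases before and 50 bases after the start). Those of Ski and Tgfbr1, which fell most, and of Inhba, which was silent in BV2 cells, are shown because they lie far apart in CG content. They are written 5′ to 3′ on the gene's strand, with CG dinucleotides in capitals.
Ski, chr4:155222486-155222785, minus strand: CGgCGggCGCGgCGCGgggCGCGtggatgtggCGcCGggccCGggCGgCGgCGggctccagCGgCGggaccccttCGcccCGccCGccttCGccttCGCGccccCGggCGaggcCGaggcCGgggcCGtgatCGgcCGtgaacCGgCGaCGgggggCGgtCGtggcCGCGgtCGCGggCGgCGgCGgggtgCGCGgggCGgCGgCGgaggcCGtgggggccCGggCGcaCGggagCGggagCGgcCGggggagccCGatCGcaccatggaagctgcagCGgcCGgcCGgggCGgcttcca
Tgfbr1, chr4:47352972-47353271, plus strand: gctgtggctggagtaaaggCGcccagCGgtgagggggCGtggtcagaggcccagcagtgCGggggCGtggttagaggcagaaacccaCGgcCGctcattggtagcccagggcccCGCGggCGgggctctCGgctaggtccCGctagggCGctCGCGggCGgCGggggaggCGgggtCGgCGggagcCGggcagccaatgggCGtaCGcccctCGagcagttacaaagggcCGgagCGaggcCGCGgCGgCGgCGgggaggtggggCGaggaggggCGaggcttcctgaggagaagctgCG
Inhba, chr13:16011601-16011900, plus strand: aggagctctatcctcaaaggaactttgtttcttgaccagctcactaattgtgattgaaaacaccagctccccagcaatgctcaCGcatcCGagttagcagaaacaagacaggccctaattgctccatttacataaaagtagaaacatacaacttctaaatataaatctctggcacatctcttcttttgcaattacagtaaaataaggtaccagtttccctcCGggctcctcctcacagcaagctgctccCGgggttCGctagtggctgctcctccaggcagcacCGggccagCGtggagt
The Ski promoter held 59 CG dinucleotides and 85.3% G or C, and 99.9% of the 32851 promoters in the table held fewer. Tgfbr1 held 34 (74.7% G or C; 92.3% held fewer) and Inhba held 7 (47.7% G or C; 47.9% held fewer). The SMAD box CAGAC, the AP-1 site TGANTCA, the short CRE site TGACG and the NF-kB consensus were searched on both strands, and none was in these 3 windows. All promoters in the table held them in 49.6%, 7.81%, 20.8% and 8.46%. The window of Tgfbr2 held 1 SMAD box, 160 bases before the start, and that of Tgfb1 held 1 stretch that matched the NF-kB consensus on both strands. A second annotated start of Tgfbr1 held 1 SMAD box, and the window of Smad3 held none of the 4.

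The ligand genes themselves did not pass the test for LPS. Tgfb1 (chr7:25687002-25705077, plus strand), the main TGF-beta ligand of myeloid cells, had 50.0, 25.4 and 26.3 CPM in primary microglia with LPS, against 32.9, 37.9 and 27.7 CPM without LPS. Library 1 with LPS was the highest of the 6, and the other two with LPS were the lowest. The log2 fold change was 0.02 ± 0.26 (adjusted p = 0.967), and without library 1 it was -0.34 (adjusted p = 0.0932). In BV2 cells Tgfb1 had 29.5 and 19.7 CPM with LPS, against 14.9 and 19.1 CPM without LPS (log2 fold change 0.55 ± 0.25, adjusted p = 0.351). This passed only without library 2 of BV2 cells with LPS (0.84, adjusted p = 0.0227).

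Inhba (chr13:16011851-16031621, plus strand) encodes the beta A subunit, a pair of which makes activin A. Primary microglia had 24.6, 32.1 and 29.1 CPM with LPS, against 28.4, 18.3 and 28.4 CPM without LPS (log2 fold change 0.18 ± 0.19, adjusted p = 0.495). The groups overlapped, with an interval of -0.20 to 0.55. BV2 cells had 0 reads of Inhba in all 4 libraries. The total count was 267 in primary microglia with LPS and 202 without LPS, so its level was at least 62.3-fold higher in primary microglia than in BV2 cells with LPS, and at least 52.1-fold higher without LPS, against a limit of 3 counts over the BV2 group.

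Of the SMADs that carry the signal, Smad3 fell and Smad2 did not pass the test. Smad3 (chr9:63646767-63757994, minus strand) was the scarcest of the 10 per kilobase of exon in primary microglia, with 6.25, 6.36 and 5.65 CPM with LPS, against 12.0, 11.4 and 7.01 CPM without LPS. Library 3 without LPS lay close to the libraries with LPS. The log2 fold change was -0.74 ± 0.28 (adjusted p = 0.0464), a call lost in 7 of 14 alternatives, with adjusted p up to 0.196. These rest on 16 to 32 reads per library. Smad2 (chr18:76241580-76310963, plus strand) had 68.8, 67.1 and 79.1 CPM with LPS, against 59.8, 54.2 and 72.6 CPM without LPS, and the groups overlapped (0.19 ± 0.14, adjusted p = 0.295). The ratio of Smad2 to Smad3 read counts was 11.0, 10.6 and 14.0 in primary microglia with LPS, against 5.00, 4.75 and 10.4 without LPS (exact permutation p = 0.1, the smallest possible; 0.133 adjusted). In BV2 cells its mean was 12.5 with LPS and 8.27 without LPS (exact permutation p = 0.333, adjusted 0.667).

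Smad4 (chr18:73639009-73703780, minus strand), the shared partner, had 34.4, 25.1 and 23.5 CPM in primary microglia with LPS, against 33.2, 39.9 and 28.0 CPM without LPS. These overlapped through library 1 with LPS (-0.31 ± 0.19, adjusted p = 0.205), and without it the log2 fold change was -0.47 (adjusted p = 0.0175). Smad7 (chr18:75367529-75395935, plus strand), the inhibitory SMAD and a known feedback target of the pathway, had 21.9, 26.4 and 27.7 CPM with LPS, against 38.5, 43.2 and 36.5 CPM without LPS. Every library with LPS was lower than every one without, and the fall of -0.64 ± 0.16 (adjusted p = 0.00364) held in all 14 alternatives. In BV2 cells none of Smad2, Smad3 and Smad4 passed (log2 fold changes of 0.14, -0.46 and 0.12, adjusted p of 0.854, 0.763 and 0.898). Of the 8 genes tested there, 4 had an unadjusted p under 0.05, namely Tgfb1, Tgfbr2, Ski and Skil. The largest of these 4 p-values, for Tgfb1 (0.0495 by edgeR), ranked 1315 from the smallest among the 9321 genes tested. Smad7 had too few reads there to be tested, 16 over both libraries with LPS and 19 over both without LPS.

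Of the 10 genes, 9 were called higher in primary microglia than in BV2 cells with LPS, and all 10 without LPS. The background was high: 73.8% of 11626 genes were called between the cells with LPS, 43.1% as higher and 30.7% as lower in primary microglia, and 74.1% without LPS, 41.5% as higher and 32.5% as lower. Tgfbr1 differed most among the genes detected in both, at 131 ± 14.1 CPM in primary microglia and 11.8 ± 4.38 CPM in BV2 cells with LPS, and 282 ± 12.8 CPM in primary microglia and 15.6 ± 1.32 CPM in BV2 cells without LPS (SD, n = 3 and 2). The log2 fold changes of primary microglia over BV2 cells were 3.45 ± 0.19 with LPS (adjusted p = 5.09e-15) and 4.18 ± 0.19 without (adjusted p = 8.97e-17). Smad7 came next at 3.36 ± 0.30 with LPS and 3.67 ± 0.28 without LPS, with 25.3 ± 3.04 CPM in primary microglia and 2.49 ± 0.74 CPM in BV2 cells with LPS, and 39.4 ± 3.45 CPM and 3.06 ± 0.81 CPM without LPS. Tgfb1 differed least, with log2 fold changes of 0.45 ± 0.28 with LPS (adjusted p = 0.153) and 0.94 ± 0.30 without (adjusted p = 0.00941). The call without LPS was lost without library 1 of BV2 cells without LPS (0.76, adjusted p = 0.0965). Both comparisons take their libraries from the groups of the LPS comparisons, so they are not independent of them.

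Longer genes had relatively higher counts in primary libraries and lower counts in BV2 libraries. The slope of log2 level per doubling of exonic length was 0.02 to 0.22 in primary microglia with LPS, 0.23 to 0.32 without LPS, -0.32 and -0.31 in BV2 cells with LPS, and -0.30 and -0.24 in BV2 cells without LPS. Removing each library's length trend moved the median over all genes by -0.34 with LPS and -0.30 without LPS, and left 8 and 9 of the 10 genes called. Of the calls over all genes, 49.4% with LPS and 47.4% without LPS were then higher in primary microglia, against 58.5% and 56.1% as counted. Smad2 without LPS then had a log2 fold change of 0.26 (adjusted p = 0.201), against 1.06 ± 0.17 as counted. Smad3 with LPS had 0.81 (adjusted p = 0.0689), against 1.21 ± 0.40 as counted. Tgfbr1 kept 2.92 and 3.63, and Smad7 3.11 and 3.44, with and without LPS.

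**Figure D4:**
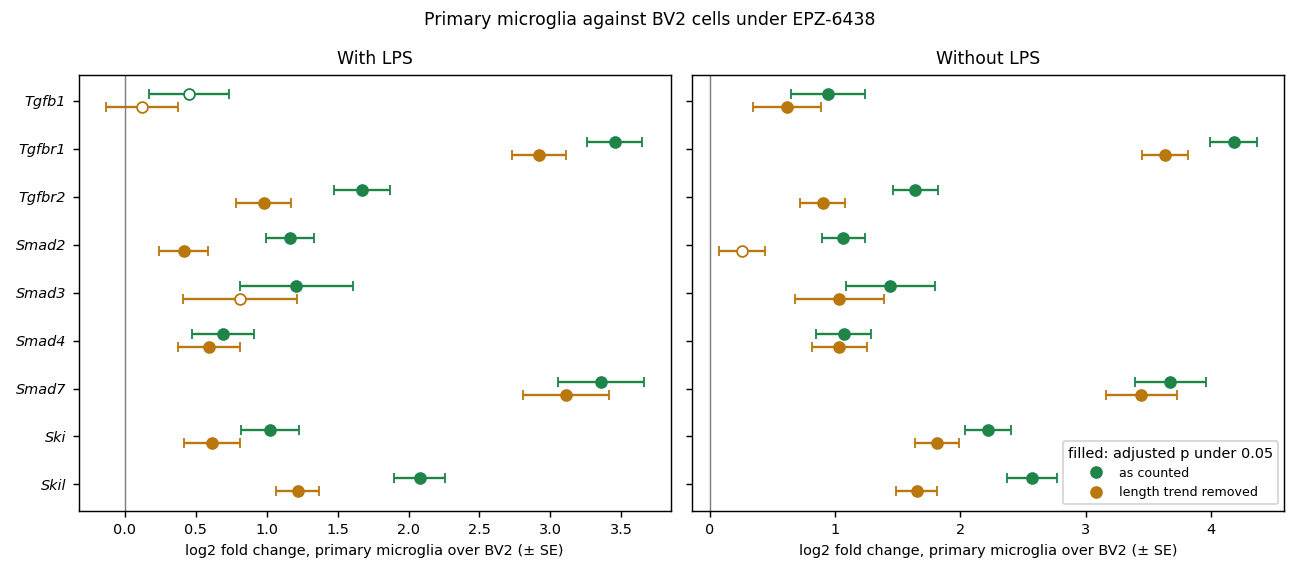
Log2 fold change of primary microglia over BV2 cells (x axis; bars are ± SE) with LPS (left) and without LPS (right), as counted (green) and after removal of each library's trend of level on exonic length (brown); filled points have an adjusted p under 0.05, and Inhba, at 0 in BV2 cells, is left out. All points lie to the right of 0, Tgfbr1 (3.45 and 4.18) and Smad7 (3.36 and 3.67) farthest, and Smad2 without LPS moves to 0.26 once the trend is removed.

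Set against each other per kilobase of exon, the 10 genes changed rank between groups. In primary microglia with LPS, Skil led at 21.2 ± 5.10 CPM per kilobase (SD, n = 3) and overlapped with Tgfbr1 at 20.1 ± 2.15, ahead of Smad2 (8.16 ± 0.74), Smad4 (7.45 ± 1.59), Ski (7.11 ± 1.77) and Tgfb1 (6.73 ± 2.77). Without LPS, Tgfbr1 led at 43.2 ± 1.96, followed by Ski at 25.9 ± 2.42 and Skil at 15.3 ± 1.52, which did not overlap with each other. In BV2 cells with LPS the order began with Skil (5.01), Tgfb1 (4.88) and Smad4 (4.58), and without LPS with Ski (5.55), Smad4 (4.32) and Smad2 (3.40). Smad3 was lowest of the detected genes in each group, between 0.475 CPM per kilobase in BV2 cells with LPS and 1.83 in primary microglia without LPS. Which transcripts were used is not known, so these per-length levels assume the whole exon union.

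Beyond the 10 genes, 110 pathway genes in 10 lists by role (with the 10 among them) place these values in the wider pathway. In primary microglia 80 could be tested, of which 19 were higher and 21 lower with LPS, a share of 50.0% beside the 39.2% over all genes. In BV2 cells 57 could be tested, with 6 higher and 1 lower, beside 3.69% and 1.51% over all genes. The median log2 fold change of the tested pathway genes was -0.05 in both kinds of cells, against -0.03 and -0.01 over all genes.

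**Figure D5:**
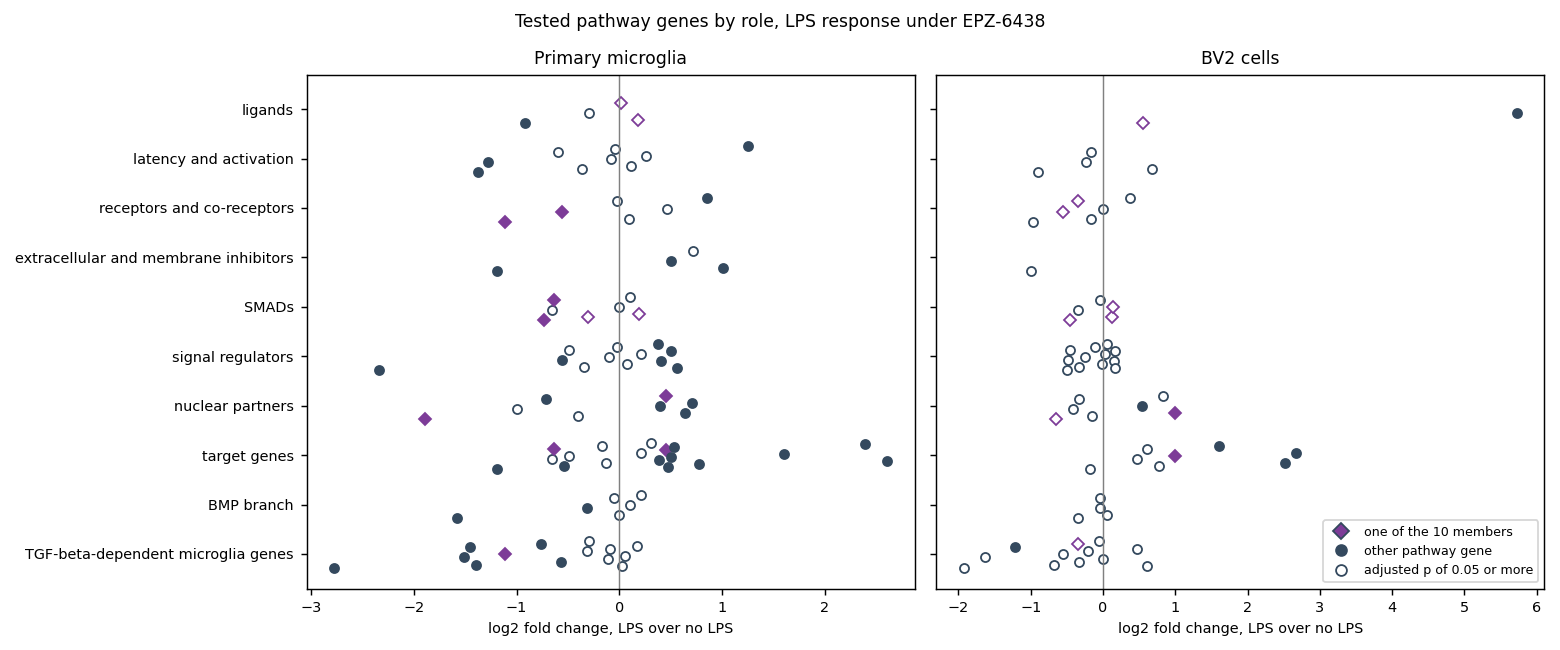
Log2 fold change of LPS over no LPS (x axes, with different ranges) of each tested pathway gene by role (rows; a gene may stand in more than one row) in primary microglia (left) and BV2 cells (right); diamonds are the 10 genes described here, open points have an adjusted p of 0.05 or more. Target genes such as Junb (2.61) and Cdkn1a (2.39) lie far to the right in primary microglia and Wwp1 (-2.34) far to the left, while the point at 5.73 in BV2 cells is Gdf15, which had 1 read without LPS.

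Among ligand genes in primary microglia, Tgfb3 fell (6.78 CPM with LPS, 12.8 CPM without LPS; log2 fold change -0.92, adjusted p = 0.00548), and 0 of the 4 tested rose. In the list for latency and activation, 1 of 9 rose and 2 fell. Of all genes tested in primary microglia, 21.4% were called higher and 17.8% lower. Itgav, the integrin chain that helps to free latent TGF-beta, had 417, 269 and 312 CPM with LPS, against 134, 157 and 123 CPM without LPS (1.25 ± 0.16). Nrros, which tethers latent TGF-beta1 on microglia, had 16.0, 21.6 and 12.4 CPM with LPS, against 39.6, 42.0 and 46.6 CPM without LPS (-1.37 ± 0.19), and the latent binding protein gene Ltbp3 fell (-1.28 ± 0.31). The integrin chain and both latent-form proteins thus lay on opposite sides of 0, with no overlap between groups.

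Of 6 receptor genes tested in primary microglia, 1 rose and 2 fell, Tgfbr1 and Tgfbr2, beside 21.4% higher and 17.8% lower over all genes. Acvr1b, the activin type I receptor (ALK4), rose, at 40.7, 47.4 and 39.3 CPM with LPS, against 25.4, 18.3 and 25.6 CPM without LPS (0.86 ± 0.17, adjusted p = 4.71e-04). Bambi, a decoy receptor without a kinase, rose, at 42.2, 49.6 and 59.9 CPM with LPS, against 20.5, 26.9 and 27.7 CPM without LPS (1.01 ± 0.17). It was 1 of 2 inhibitor genes of 4 that rose, beside 1 that fell. In BV2 cells 0 of 6 receptor genes were called by edgeR or DESeq2. Only 1, Tgfbr2, had an unadjusted p under 0.05, at rank 1186 from the smallest among 9321 genes tested. Of all genes tested there, edgeR called 5.20%.

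Among regulators of the receptors and SMADs, 4 of 12 rose and 2 fell in primary microglia, and 0 of 12 were called in BV2 cells by either tool, with 0 at an unadjusted p under 0.05. Over all genes, edgeR called 3.69% higher and 1.51% lower in BV2 cells, and 21.4% and 17.8% in primary microglia. Wwp1, a ubiquitin ligase that acts with SMAD7 on the type I receptor, had 23.5, 10.2 and 17.8 CPM with LPS, against 96.0, 81.9 and 77.5 CPM without LPS (-2.34 ± 0.22). Of 8 nuclear partners 4 rose and 2 fell in primary microglia, beside the same shares over all genes. The repressor Zeb1 rose (0.70 ± 0.14), and Skil and Zeb2 were the 2 of 7 called in BV2 cells (Zeb2 0.54 ± 0.14, adjusted p = 0.0499, lost in 4 of 12 alternatives).

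Of 18 known target genes tested in primary microglia, 9 rose and 3 fell, beside 21.4% and 17.8% over all genes, with a median log2 fold change of 0.35. Without library 1 with LPS the counts were 10 and 4, and 51.9% of the calls over all genes were higher, against 54.7% with it. The AP-1 gene Junb had 376, 572 and 490 CPM with LPS, against 78.1, 71.3 and 84.5 CPM without LPS (2.61 ± 0.15). The cell cycle inhibitor genes Cdkn1a and Cdkn2b rose (2.39 ± 0.11 and 1.61 ± 0.26). In BV2 cells 4 of 8 tested targets rose and 0 fell, beside 3.69% higher and 1.51% lower over all genes tested there. Id3, a helix-loop-helix inhibitor, had 53.0 and 53.2 CPM with LPS, against 7.47 and 9.57 CPM without LPS (2.67 ± 0.22), and Junb rose (1.61 ± 0.14). Gdf15, a distant family member, had 35 and 32 reads with LPS, against 0 and 1 without LPS, a ratio of 64.0 with a 95% counting interval of 11.1 to 2564. Many of these genes also answer to other signals, and the part of TGF-beta in their change was not tested.

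Of 14 genes that microglia are known to need TGF-beta to express, tested in primary microglia, 7 fell and 0 rose (median -0.44). Over all genes, 17.8% were lower and 21.4% higher in the fit with all libraries. Without library 1 with LPS 8 of the TGF-beta-dependent genes fell and 1 rose. In that setting 51.9% of the calls over all genes were higher, against 54.7% with library 1. Csf1r, the receptor for the survival factor CSF1, had 180, 102 and 80.5 CPM with LPS, against 355, 330 and 257 CPM without LPS (-1.40 ± 0.33, adjusted p = 0.0213, lost in 3 of 14 alternatives). The purinergic receptor genes P2ry13 and P2ry12 fell (-1.51 ± 0.32 and -1.45 ± 0.39). P2ry12 had 19 reads over the 3 libraries with LPS and 45 over the 3 without LPS. In the BMP branch Bmpr1b, a type I receptor, fell (-1.58 ± 0.44), on 17 reads with LPS and 44 without. In BV2 cells 1 of 12 TGF-beta-dependent genes fell, beside 1.51% of all genes tested there, and that call was lost with DESeq2. Fewer cells that express a gene and less of its RNA per cell cannot be told apart in such bulk libraries. The summed level of the 13 microglia markers was 2526 to 2793 CPM in primary microglia with LPS and 2297 to 2649 CPM without LPS. Of these, 12 could be tested, and 2 were called higher and 3 lower. The sum thus joins opposite changes. Ptprc had 453, 425 and 494 CPM with LPS, against 121, 120 and 128 CPM without LPS, while Csf1r was lower with LPS. Fibroblast markers summed to 70.6 to 127 CPM with LPS and 96.4 to 310 CPM without LPS, with 0 of 6 called, or 1 higher and 3 lower without library 1. The 7 markers of the oligodendrocyte lineage summed to 120 to 158 CPM with LPS and 164 to 171 CPM without LPS, which did not overlap, and 1 of 6 tested was called, as lower. Astrocyte markers summed to 883 to 1553 CPM with LPS and 869 to 1453 CPM without LPS, with 1 of 8 tested called higher and 2 lower. The part of these cells in the LPS results was not tested.

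Between the cells, the pathway lists were mostly higher in primary microglia. Of 84 tested genes 70 were higher and 5 lower with LPS, and 71 were higher and 6 lower without LPS. Over all 11626 genes the shares were 43.1% higher and 30.7% lower with LPS, and 41.5% and 32.5% without LPS. Of the 110, 31 had reads in primary microglia and 0 in all BV2 libraries, among them 6 of the 11 ligand genes (with Inhba, Tgfb2 and Tgfb3) and 9 of the 13 of the BMP branch. The reverse held for 2 genes with 2 BV2 reads each, Nodal and Foxh1. Over all genes, 14360 to 14838 were detected in each primary library and 11657 to 11790 in each BV2 library. The share of all genes at 0 in BV2 cells alone was not worked out, so these counts are not set against it. The matrix genes Timp3 and Fn1 were at least 499-fold and 474-fold higher in primary microglia with LPS (268-fold for Fn1 and 507-fold for Timp3 without library 1), and at least 687-fold and 625-fold higher without LPS. The growth factor gene Ctgf was at least 307-fold and 326-fold higher, the inhibitor gene Pmepa1 at least 273-fold and 183-fold, and Gas6, a ligand of the MERTK receptor, at least 153-fold and 247-fold, with and without LPS. Nog, a secreted BMP antagonist, was at least 55.6-fold higher with LPS, and Itgb8, which pairs with Itgav, at least 81.8-fold higher without LPS. Each bound is against 3 counts over the BV2 group.

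Most markers of other brain cells were higher in the primary libraries. Astrocyte markers (10 genes) summed to 883 to 1553 CPM in primary microglia and 38.0 to 41.6 CPM in BV2 cells with LPS, and 869 to 1453 CPM in primary microglia and 41.6 to 43.0 CPM in BV2 cells without LPS, where 8 of the 10 were at 0. Of the astrocyte markers Aldoc alone went the other way, at 38.0 to 42.7 CPM in BV2 libraries and 19.2 to 32.6 CPM in primary libraries. Aldoc made up nearly all of the astrocyte sum in BV2 cells. Fibroblast markers, at 70.6 to 310 CPM in primary libraries, were at 0 in BV2 cells, as were 5 of 5 neuron markers, which summed to 40.7 to 53.4 CPM in primary libraries. Their part in the higher pathway genes was not tested.

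A few pathway genes were higher in BV2 cells. Nrros was at 16.7 CPM in primary microglia and 178 CPM in BV2 cells with LPS (log2 fold change -3.41 ± 0.17), and at 42.7 CPM in primary microglia and 204 CPM in BV2 cells without LPS (-2.25 ± 0.16). Tmem119 was lower in primary microglia by 2.40 ± 0.36 with LPS and 2.62 ± 0.34 without LPS on the log2 scale. The receptor-binding protein genes Fkbp1a (-1.27 and -1.35) and Strap (-1.05 and -1.67) were lower in primary microglia with and without LPS, as were Gdf15 with LPS (-3.07 ± 0.43) and, without LPS, Junb (-0.54 ± 0.16) and Usp15 (-0.43 ± 0.16). The call of Usp15 was lost in 4 of the alternatives, and its value was -1.90 after removal of the length trend. The call of Junb was lost after that removal (-0.28, adjusted p = 0.0813).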

How the data were processed

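The authors deposited whole-number counts of reads for each gene symbol in 10 libraries, laid out as STAR writes them. Per the labels' protocols, ribosomal RNA was removed and a directional kit and paired reads were used. CASAVA 1.8.2, Trimmomatic 0.33, STAR 2.5.1, DESeq2 and the mm10 build are named in the submitters' processing notes, with the gene annotation not given in the sources used here. Only the reverse-strand column was used. Of stranded gene reads, 0.682% to 2.21% lay opposite. Entries without a gene (70.4% to 79.5% of reads) were left out.

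Tests used edgeR 4.0.16 under R 4.3.3 (TMM, filterByExpr with minimum count 10 and total 15, robust quasi-likelihood F test, Benjamini-Hochberg over all genes tested, called under 0.05). LPS was tested within each kind of cell. The difference of responses and the cell types were tested on all 10 libraries. Levels are CPM on TMM-scaled gene counts. Per-kilobase levels, coordinates and lengths use GENCODE M21 (mm10). A group at 0 is bounded at 3 counts over the group, and such bounds and 95% intervals of ratios cover counting error only. The script was tested on simulated counts. Pathway genes named are the called ones with the largest fold changes, at most 8 in each direction for LPS and 6 between cells, with Tgfb3, genes at 0 and the 3 genes nearest in pattern added. Some genes counted in the lists are not reported here by name. The members and lists were chosen with earlier results of these data known. Alternatives were RLE scaling, DESeq2 1.42.0, no filter, unstranded counts, structural RNA left out and a replicate block. Others were another set of libraries in the fit, each library left out and, added after seeing the data, removal of each library's length trend. The replicate block used between the kinds of cells was not planned either.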

Additional observations from a re-analysis of the deposited data

Results flagged for a closer look

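For 8 genes named above the response to LPS differed between primary microglia and BV2 cells in edgeR's test of the interaction over all 10 libraries. They are listed because they passed that test, which called 12.2% of all 11626 genes tested (8.65% higher and 3.54% lower). The log2 differences below are primary microglia minus BV2 cells. Of the 10 core genes, Ski alone passed that test, at -1.20 ± 0.27 (adjusted p = 0.00261). Among genes of latency and activation, the difference was -1.16 for Nrros (adjusted p = 0.00106), whose own log2 fold changes were -1.37 in primary microglia and -0.17 in BV2 cells, and 1.53 for Itgav (adjusted p = 4.13e-05). Bambi differed by 2.05 (adjusted p = 3.66e-05), at 42.2 to 59.9 CPM with LPS and 20.5 to 27.7 CPM without LPS in primary microglia, and 6.75 to 8.05 CPM with LPS and 14.9 to 15.2 CPM without LPS in BV2 cells. The BV2 change of Bambi did not pass its own test (log2 fold change -0.99, adjusted p = 0.0543).

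Of the target genes, Cdkn1a (1.66, adjusted p = 1.89e-05) and Junb (1.04, adjusted p = 0.00117) responded more in primary microglia. Id3 (-2.24, adjusted p = 6.49e-07) responded more in BV2 cells. Gdf15 differed by -5.60 (adjusted p = 5.74e-04), a fitted value that rests on 1 read in BV2 cells without LPS.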

How the results depend on the processing

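Groups of 3 and 2 libraries, 2750988 to 3684012 gene counts and a share of up to 51.7% for Rn45s limit what could be seen. The calls of Smad3 and Skil in primary microglia and of Skil in BV2 cells depended on single libraries, as given with their values. Of 749 alternative values for the 10 genes, 710 kept their direction and their side of the threshold, 16 lost the call, 9 gained it and 14 changed sign, all 14 of them uncalled. In primary microglia Tgfb1 (0.02) was -0.00809 with a replicate block and -0.343 to 0.196 with 1 library left out. The difference of responses of Tgfbr2 (0.03) was -0.0074 with RLE scaling, -0.0062 with DESeq2, -0.0741 without structural RNA genes and -0.125 to 0.0831 with 1 library left out, and that of Smad2 (0.10) was -0.0044 without structural RNA genes and -0.0183 to 0.209 with 1 library left out. Their causes were not tested. Leaving out structural RNA genes moved the median difference of responses over all genes by -0.10, and 60.1% of its calls were then positive, against 70.9%.

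In BV2 cells 485 genes were called, 318 with DESeq2 and 353 to 800 with 1 library left out, highest without library 1 with LPS. Of the 10 genes 0 to 2 were then called, against 1. For the difference of responses, 1 to 4 of the 10 were called with 1 library left out. Same-numbered libraries did not deviate together in every pair of primary microglia (correlations of 0.190, -0.088 and 0.207), and were therefore not treated as pairs. With the replicate block, 4479 genes were called in primary microglia and 596 in BV2 cells, and 6 and 1 of the 10 genes, as without it. Between the cells the block, which was not planned, joined primary and BV2 libraries of the same number, though nothing in the labels ties them together. Under that block Tgfb1 was called with LPS (0.58, adjusted p = 0.0404), so no weight is put on this call.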
